A study of Mus musculus with 48 samples.

Results

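Macrophage and myeloid genes were described in the livers of 48 mice, 1 array per mouse. The set held 40 listed genes of resident liver macrophages, of monocytes and granulocytes that enter the liver from blood, and of functions that these cells share. Each gene was represented by its single-symbol probe set with the highest mean over all arrays. Of the 40 genes, 39 had such a probe set, Spp1 was skipped, and all 39 passed the filter on low values, out of 22180 genes measured and 16926 tested.

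The mice ate 1 of 20 combinations of composition and energy density from 3 weeks of age, without restriction, and livers were taken at 15 months. Each diet is written as its shares of energy in percent, in the order protein, carbohydrate, fat. High energy mice ate 5/20/75 (2 mice), 5/48/48 (4), 5/75/20 (4), 14/29/57 (4), 14/57/29 (2), 23/38/38 (3), 23/65/12 (2), 33/20/47 (2), 33/47/20 (2), 42/29/29 (1) and 60/20/20 (3). Medium energy mice ate 14/29/57 (1), 14/57/29 (2), 23/38/38 (3), 33/20/47 (3), 33/47/20 (2) and 42/29/29 (3), and low energy mice ate 23/38/38 (1), 42/29/29 (1) and 60/20/20 (3). All 10 mice on 5% protein thus ate high energy diets. The labels gave a number to each mouse but neither strain nor sex, and the series held both sexes. Y-linked genes lay above Xist in 24 arrays and below it in 24.

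Array medians lay between 1.57 and 1.86 and interquartile ranges between 2.78 and 3.63 on the deposited scale, read as log2. Correlations between arrays ran from 0.898 to 0.982, and no 2 arrays were identical. The hepatocyte gene Alb, which encodes albumin, lay between 12.63 and 13.06 in 47 mice and at 12.88 in the remaining one, the single mouse on the Medium energy 14/29/57 diet (mouse 118). That array correlated least with the rest, with a median r of 0.920 against at least 0.945 for every other array. Results are therefore given with and without it.

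Kupffer cells are the resident macrophages of the liver sinusoids. They clear particles and microbes from portal blood. Clec4f, Vsig4 and Timd4 are genes of mouse Kupffer cells and are called resident genes here. The age and origin of the cells that express them were not measured. Monocytes that carry Ccr2 and Ly6c2 are drawn to the liver by the chemokine encoded by Ccl2 and can become macrophages there, and cells with Trem2, Gpnmb and Cd9 are known from livers that store lipid. In liver RNA, fewer cells of a type and less RNA per cell cannot be told apart.

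In mouse 118, 33 of the 39 genes lay above the highest of the 47 other mice. Of all genes tested, 15.7% lay above all others in that mouse and 11.6% below. The excess over the highest other mouse passed 2 on the log2 scale for 26 members. The median excess over the median of the 47 was 4.45 for the members and -0.03 for all genes tested. With 1 mouse on that diet, diet and animal cannot be told apart, and these values are given as a description with no test.

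The monocyte genes F13a1, Chil3 and Itgam had the largest excess over the highest other mouse among the members. F13a1, the A chain of coagulation factor XIII, was at 10.92 in mouse 118 and between 1.17 and 2.19, with a median of 1.56, in the others. Chil3, a chitinase-like protein of activated myeloid cells, was at 11.20 against 0.54 to 3.44 (median 1.14). Both genes lay near or below the array medians in most of the 47 mice, so no linear fold is given for them. Itgam, which encodes CD11b, was at 10.49 against 2.13 to 5.27, and Ly6c2 was at 6.42 against 0.96 to 3.19. Ccr2, the receptor for the Ccl2 chemokine, was at 3.83 against 1.09 to 2.77. Itgax, which encodes CD11c, was at 2.48 and inside the range of the others, and the fractalkine receptor gene Cx3cr1 was at 2.20, below 41 of the 47.

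The resident Kupffer genes were also above the others, with a median excess over the median of the 47 of 4.45, against 4.49 for the genes of monocytes and recruited cells. Vsig4, a complement receptor, was at 11.89 in mouse 118 against 5.59 to 8.84, and Timd4, a receptor for phosphatidylserine on dying cells, was at 9.63 against 2.04 to 6.98. Clec4f, a lectin of Kupffer cells, was at 9.64 against 6.55 to 8.93. The scavenger receptor gene Marco was at 9.45 and Cd5l at 9.80, against highest other values of 8.23 and 8.96. All 5 Kupffer genes and 5 of the 7 genes of monocytes and recruited cells were thus outside the range of the 47 mice.

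Genes shared by macrophages followed. All 8 pan-macrophage genes, all 6 genes of uptake and receptors and all 3 genes of complement C1q lay above the others. The lysosomal marker Cd68 was at 11.30 against 3.93 to 7.27, and the Fc receptor gene Fcgr3 was at 10.18 against 3.79 to 5.80. The lipopolysaccharide co-receptor gene Cd14 was at 8.78 against 1.99 to 4.47. C1qb was at 12.15 against 6.22 to 9.15.

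The granulocyte pair S100a8 and S100a9, which encode the subunits of calprotectin, was at 7.60 and 6.69, with highest other values of 3.39 and 3.30. Of the lipid-associated genes, Trem2, a receptor for lipids and apolipoproteins, was at 9.53 against 2.05 to 5.21, whereas Gpnmb was at 3.34 and inside the range. Cd9 at 7.80, Slamf8 at 3.05 and the interleukin 1 receptor antagonist gene Il1rn at 4.80 were inside the range too.

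Markers of other cells moved in the same mouse. Of 11 neutrophil genes, 10 lay above the 47 others, and their mean was 6.27 in mouse 118. The mean of the neutrophil list was 1.71 to 2.66 over the diets of the other mice. Retnlg was at 8.60 against a median of 1.89, and Mpo and Elane, which encode granule enzymes of immature granulocytes, were at 5.73 and 6.24 against medians of 1.20 and 1.27. The erythroid band 3 gene Slc4a1 was at 6.32 against 1.76. Endothelial genes lay above the range for 6 of 11 and below it for 1, with a median excess over the median of the 47 of 0.76. The sinusoidal gene Lyve1 had the largest excess, at 10.86 against 6.04. Clec4g was below all others, at 7.10 against 8.71, and Oit3 and Stab1 passed the highest other value by only 0.0023 and 0.062. Lymphocyte genes were above the range of the 47 for 5 of 13. Of 9 hepatocyte genes, 0 were above and 5 were below all others. Cyp2e1 was at 9.30 against a median of 12.66 and Hnf4a at 8.45 against 10.12. The part of these cell types in the member values was not tested. Spi1, which encodes the myeloid transcription factor PU.1, was at 8.54 in mouse 118 against 3.45 to 5.40 in the others.

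**Figure D1:**
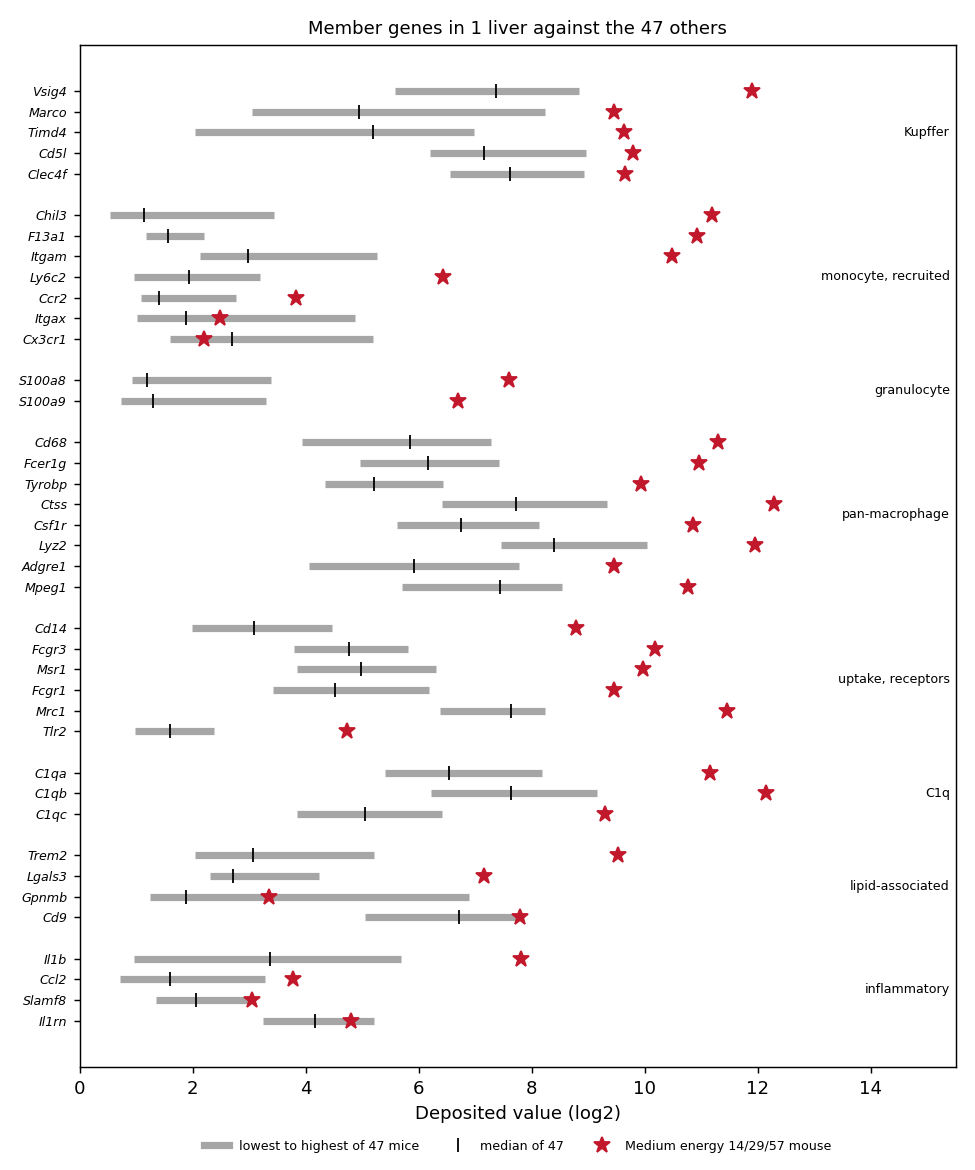
Deposited log2 values of the 39 member genes in the Medium energy 14/29/57 mouse (stars) with the range (grey bars) and median (ticks) of the 47 other mice, grouped by role. The star lies right of the grey bar for 33 genes, and inside it for Itgax, Cx3cr1, Gpnmb, Cd9, Slamf8 and Il1rn.

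PU.1 is an Ets factor whose recognition core is GAGGAA. Upstream sequences are shown of 4 members that stood far above the range in mouse 118 and that hold that core. Each run is the 250 bases before the annotated start, 5′ to 3′ on the strand of the gene, from RefSeq on GRCm38.p6, and capitals mark GAGGAA or its reverse complement TTCCTC. The runs lie at chr7:128062390-128062639 on the plus strand (Itgam), chr11:69666171-69666420 on the minus strand (Cd68), chr3:96293970-96294219 on the minus strand (Fcgr1) and chr17:48346151-48346400 on the plus strand (Trem2).
Itgam: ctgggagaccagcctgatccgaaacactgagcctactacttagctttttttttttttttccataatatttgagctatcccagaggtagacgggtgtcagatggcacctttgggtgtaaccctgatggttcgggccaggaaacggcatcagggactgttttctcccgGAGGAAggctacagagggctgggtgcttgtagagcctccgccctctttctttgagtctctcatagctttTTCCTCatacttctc
Cd68: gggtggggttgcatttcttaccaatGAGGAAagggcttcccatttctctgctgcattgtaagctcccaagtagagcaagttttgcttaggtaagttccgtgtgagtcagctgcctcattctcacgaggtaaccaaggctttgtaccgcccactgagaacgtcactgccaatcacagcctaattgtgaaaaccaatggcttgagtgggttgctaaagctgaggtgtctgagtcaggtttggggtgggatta
Fcgr1: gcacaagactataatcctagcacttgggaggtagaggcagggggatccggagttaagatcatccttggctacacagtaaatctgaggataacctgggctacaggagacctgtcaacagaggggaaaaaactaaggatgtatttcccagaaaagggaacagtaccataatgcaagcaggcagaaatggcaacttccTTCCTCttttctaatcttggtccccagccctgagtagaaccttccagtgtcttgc
Trem2: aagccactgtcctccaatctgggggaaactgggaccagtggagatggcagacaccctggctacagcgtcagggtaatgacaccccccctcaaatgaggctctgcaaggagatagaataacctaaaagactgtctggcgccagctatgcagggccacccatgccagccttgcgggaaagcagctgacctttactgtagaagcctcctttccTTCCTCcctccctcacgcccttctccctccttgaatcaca

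Of the 39 members, 32 had at least 1 promoter in the RefSeq table, with 37 promoters in all. GAGGAA on either strand was present in 17 of these 37 upstream runs, from 15 genes. It was present in 23.3% of the 32851 upstream runs of the same length in the table. Itgam held 2 matches and Cd68, Fcgr1 and Trem2 held 1 each, so each run shown comes from a member with the core. Chil3, Fcer1g, Lgals3, S100a9, Timd4, Clec4f, Mpeg1, Lyz2, Il1b, Tlr2 and Ccr2, also above the range in mouse 118, held 0 matches and are not shown. For F13a1, 1 run held 1 match and another held 0. Some runs of 1 gene overlap, as for Fcgr3 and Ly6c2, and each run was counted. A match is a string of letters and was not measured as a bound site.

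The protein share of the diet was the axis with calls among the members. The protein slope gives the log2 difference per 10 percentage points more protein, with both other nutrients reduced equally. With limma and Benjamini-Hochberg adjustment over 16926 genes at 0.05, 2 of 39 members fell with protein and 0 rose. Among all genes tested, 3.65% fell and 3.37% rose, or 7.01% in all, so the share of members called was near the background. Without mouse 118, 2 members fell and 1 rose, against 4.16% and 3.46% of all genes.

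Cd9 encodes a tetraspanin found on lipid-associated macrophages and on many other cell types. At 5% protein its lowest, median and highest values were 6.61, 7.05 and 7.64 in 10 mice, and at 14% they were 6.17, 7.18 and 7.80 in 9. They were 5.50, 6.72 and 7.86 at 23% and 6.09, 6.57 and 7.63 at 33%, in 9 mice each. The 5 mice at 42% had 5.84, 6.11, 6.47, 6.77 and 7.68. At 60% the values were 5.05, 5.33 and 6.39 in the high energy mice and 5.59, 6.12 and 7.68 in the low energy mice. The medians declined from 14% to 60% protein, and the ranges of neighbouring shares overlapped.

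The protein slope of Cd9 was -0.24 ± 0.06 (SE, 48 mice; limma adjusted p = 0.00607), which extends to a 2.52-fold lower level over the 55 points from 5% to 60%. Leaving out mouse 118 gave a slope of -0.23 (adjusted p = 0.0083), and Cd9 was called in each fit that left out 1 mouse. A dimmer Cd9 probe set, with a mean of 1.35, had a slope of 0.03, and the mean of both probe sets had a slope of -0.11 (limma adjusted p = 0.0396).

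Slamf8, a receptor of the SLAM family on activated macrophages, had a lowest, median and highest value of 1.52, 2.58 and 3.05 at 5% protein and of 1.35, 1.83 and 2.08 at 60%. Its protein slope was -0.12 ± 0.03 (SE; limma adjusted p = 0.0156), a 1.61-fold lower level over 55 points, and -0.12 (adjusted p = 0.0201) without mouse 118. The groups overlapped, since 2 mice at 5% protein on 5/75/20 had only 1.52 and 1.64. Il1rn had a slope of -0.13 ± 0.04 and an adjusted p of 0.0523 in the same limma fit. Il1rn passed the threshold in 7 of 16 alternatives and in 10 of the 48 fits without 1 of the mice. Its limma adjusted p was down to 0.00967 with array weights. That setting called 4301 of all 16926 genes, and the log2 of the protein share called 3652. When the array interquartile range was added as a covariate the slope of Il1rn was -0.08 (limma adjusted p = 0.539). Its median was 4.42 at 5% protein and 3.97 at 60%. Itgam (-0.27 ± 0.11) and Cd68 (-0.21 ± 0.09) had the next smallest p, with adjusted p = 0.112 and 0.127.

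Mpeg1, the gene of the pore-forming perforin-2 of macrophages, had the opposite sign. Without mouse 118 its lowest, median and highest values were 5.70, 7.12 and 7.59 at 5% protein, 6.38, 7.07 and 7.45 at 23%, 7.45, 7.77 and 8.54 at 33%, and 6.77, 7.86 and 7.96 at 60%. The 9 mice at 33% lay almost wholly above the 9 at 23%. Its protein slope was 0.15 ± 0.05 (SE, 47 mice; limma adjusted p = 0.0333) without mouse 118 and 0.11 ± 0.06 (adjusted p = 0.267) with it, and mouse 118 had 10.77 on 14% protein. With array weights and all mice, a setting that called 4301 of the 16926 genes, the slope was 0.17 (limma adjusted p = 0.0133). When the array interquartile range was added as a covariate and mouse 118 was left out, it was 0.14 (limma adjusted p = 0.175) and the call was lost. The highest Mpeg1 value of the 47, 8.54, was that of High energy 33/47/20 mouse 195. The same mouse was the lowest of the 47 for Lyz2, Ctss, C1qa, C1qb, Mrc1 and Cd14, so Mpeg1 did not follow those genes there.

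**Figure D2:**
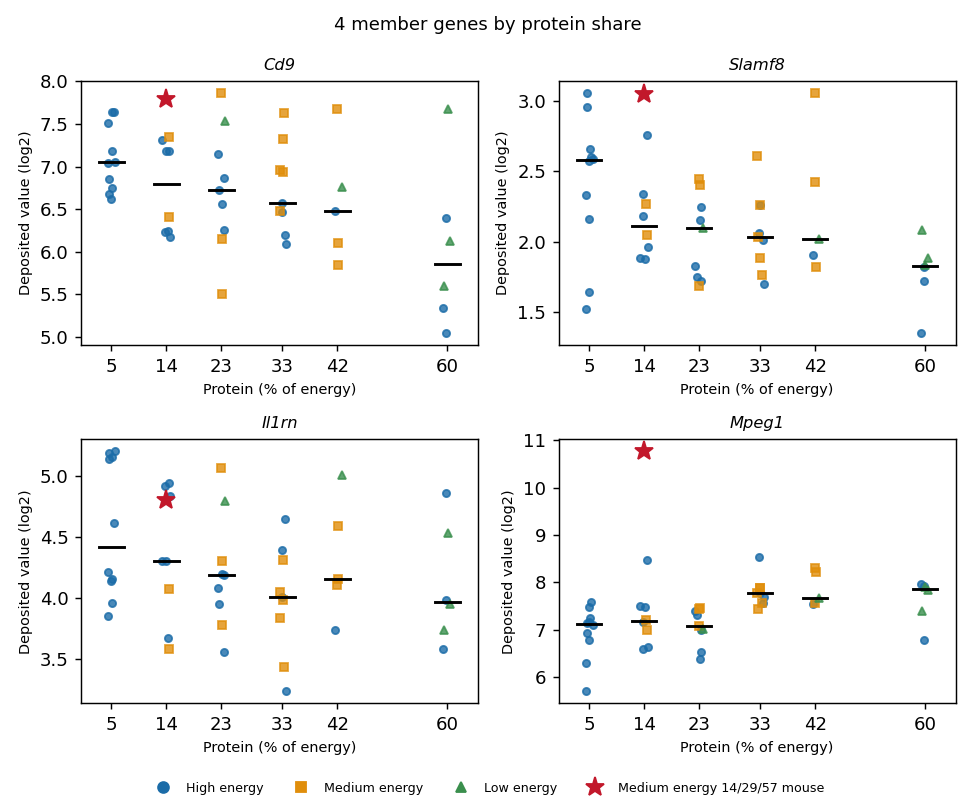
Deposited log2 values of Cd9, Slamf8, Il1rn and Mpeg1 in each mouse by the percent of energy from protein, with a small horizontal jitter. Lines are medians without the Medium energy 14/29/57 mouse (star), and those of Cd9 run from 7.05 at 5% to 5.86 at 60% protein.

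Of the 39 protein slopes, 38 were negative, with a median of -0.11 against -0.00 for all genes. Without mouse 118, 35 were negative and the median was -0.06. At unadjusted p under 0.05, 9 members had negative slopes, against 15.2% of all genes. The resident genes Clec4f (-0.05), Vsig4 (-0.12) and Timd4 (-0.09) and the recruited cell genes Ccr2 (-0.06) and Ly6c2 (-0.10) had negative slopes, with limma adjusted p between 0.34 and 0.586. The median slope was -0.09 over the 3 resident genes and -0.10 over the 7 genes of monocytes and recruited cells, and -0.03 for both without mouse 118.

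The levels of the resident genes overlapped across protein shares. Clec4f had medians of 7.65 at 5%, 7.62 at 23%, 8.02 at 33%, 7.92 at 42% and 7.29 at 60% protein, with a range of 7.03 to 7.64 at 60%. Vsig4 had medians of 7.57 at 5% and 6.90 at 60%, and Timd4 of 5.55 and 5.07. For all 3 genes the 6 mice at 60% lay within the range of those at 5%. Ccr2 had medians of 1.51 and 1.29, and Ly6c2 of 2.14 and 2.07, at 5% and 60%.

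By role, the median protein slope was -0.13 over the 8 pan-macrophage genes, -0.11 over the 6 genes of uptake and receptors, -0.13 over the 3 C1q genes, -0.18 over the 4 lipid-associated genes and -0.12 over the 4 inflammatory genes. Leaving out mouse 118 gave -0.07, -0.05, -0.07, -0.13 and -0.09. The granulocyte pair had a median of -0.08 with that mouse and 0.01 without. The 2 called genes came from the lipid-associated and the inflammatory group, in each of which 2 of 4 genes were above the range in mouse 118.

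A wider list held 81 genes of phagocytes, lysosomes, chemokines and Toll signalling. Of all genes tested, 3.65% fell with protein and 3.37% rose. Of the 81 genes 4 fell, a share near that background, and 0 rose. They were the lysosomal tetraspanin gene Cd63 (-0.38 ± 0.10, adjusted p = 0.0174), the TAM receptor gene Axl (-0.20 ± 0.06, adjusted p = 0.0245), the macrophage growth factor gene Csf1 (-0.15 ± 0.04, adjusted p = 0.0245) and the proton pump subunit gene Atp6v0d2 (-0.36 ± 0.11, adjusted p = 0.034), from the same limma fit. Atp6v0d2 lost its call in 8 of 48 fits that left out 1 mouse, Csf1 in 2 and Axl in 1, with limma adjusted p up to 0.0768. Atp6v0d2 was also lost with diet combination as a random block (adjusted p = 0.0653) and in high energy mice alone (0.0592), as was Csf1 in the latter (0.0682). The same 4 were called without mouse 118, together with the fibronectin gene Fn1 (-0.16) and the Toll-like receptor gene Tlr13 (-0.20). Without that mouse 4.16% of all genes fell. Of the 81 genes, 68 had negative slopes with mouse 118 and 64 without.

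The spread of the arrays moved with the protein share. The median interquartile range was 3.51 at 5% protein and 3.16 at 60%. With that range as a term in the limma fit, the slope of Cd9 was -0.29 (adjusted p = 0.00553) and that of Slamf8 was -0.08 (adjusted p = 0.327). All 4 wider genes also lost their calls, with adjusted p between 0.261 and 0.539. Stellate cell genes moved with protein as well. Of 11, 2 fell (Col1a1 and Col1a2), against 3.65% of all genes, and 11 had negative slopes. The median of their mean level was 5.51 at 5% protein and 4.88 at 60%. Of 5 cholangiocyte and 11 endothelial genes tested, 0 were called by limma. At unadjusted p under 0.05 there were 0 and 7. The 7 had negative slopes, against 15.2% of all genes. The part of these cell types in the slopes was not tested.

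Exchange of carbohydrate for fat gave no calls at the threshold. The exchange slope gives the log2 difference per 10 percentage points of carbohydrate replacing fat, with protein held constant. By limma 0 of 39 members and 0% of all genes were called in either direction. All 39 slopes were negative, with a median of -0.15 against 0.00 for all genes, and at unadjusted p under 0.05 there were 9 members with negative slopes, against 2.37% of all genes. Without mouse 118, 38 were negative, the median was -0.08, and 4 members had an unadjusted p under 0.05, against 1.8% of all genes.

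Ccl2, the chemokine gene, had the smallest p. At 5% protein and high energy it was at 2.61 and 2.97 on 5/20/75, at 1.45, 1.71, 2.26 and 2.77 on 5/48/48 and at 1.26, 1.34, 1.45 and 1.55 on 5/75/20. The 2 mice richest in fat lay above the 4 richest in carbohydrate at that protein share. The share of all genes that separate those diets was not computed. Ccl2 was low in the 47 mice, with a median of 1.59, and the 5/75/20 values lay below the lowest array median of 1.57. The part of that low level in the order was not tested. At 14% protein and high energy Ccl2 was at 1.54, 1.79, 2.14 and 3.28 on 14/29/57 and at 1.29 and 1.70 on 14/57/29, which overlapped. At 33% protein the order held for high energy, with 2.06 and 2.34 on 33/20/47 and 1.22 and 1.31 on 33/47/20. For medium energy the values were 1.46, 1.53 and 1.94 on 33/20/47 and 1.92 and 2.18 on 33/47/20.

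The exchange slope of Ccl2 was -0.23 ± 0.05 (SE; limma adjusted p = 0.449), and -0.21 (adjusted p = 0.822) without mouse 118. In the 29 high energy mice alone it was -0.25 (limma adjusted p = 0.0406), and with array weights -0.23 (adjusted p = 0.0354). Il1rn (-0.17 ± 0.05) and Slamf8 (-0.13 ± 0.04) followed with adjusted p = 0.991 in the limma fit of all mice. At 5% protein and high energy, Il1rn was at 5.14 and 5.19 on 5/20/75 and at 3.85, 4.14, 4.16 and 4.22 on 5/75/20, and Slamf8 was at 2.96 and 3.05 against 1.52, 1.64, 2.16 and 2.33. Neither gene overlapped between those diets, with 2 and 4 mice. Ccl2, Il1rn and Slamf8 were named for their small p in these same mice. The share of all genes without overlap between those diets was not computed. Ly6c2 had a slope of -0.21 ± 0.08 and Cd5l one of -0.15 ± 0.07 (limma adjusted p = 0.999 for each).

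**Figure D3:**
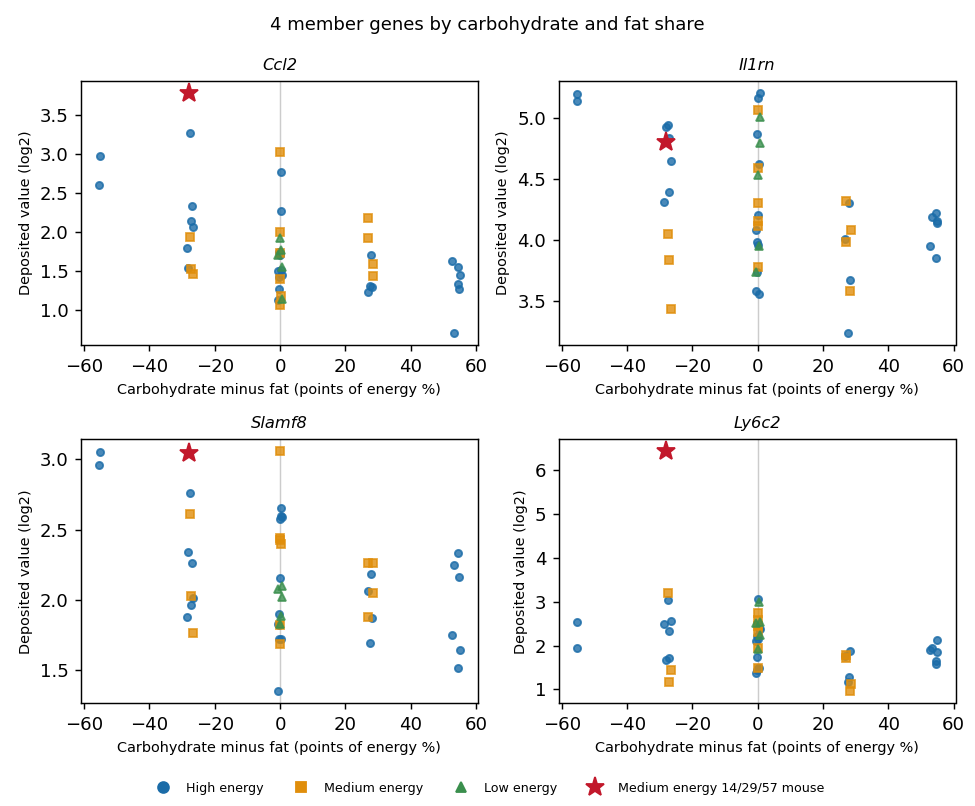
Deposited log2 values of Ccl2, Il1rn, Slamf8 and Ly6c2 in each mouse by carbohydrate minus fat in points of energy percent, with a small horizontal jitter. For Ccl2 the 2 mice at the far left, on 5/20/75, are at 2.61 and 2.97, above the mice at the far right. The share of all genes that separate those diets was not computed. The star marks the Medium energy 14/29/57 mouse.

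Of the resident genes, Clec4f (-0.10 ± 0.06), Vsig4 (-0.15 ± 0.09) and Timd4 (-0.13 ± 0.11) had exchange slopes near that of Ccr2 (-0.08 ± 0.05), each with an adjusted p of 0.999 by limma. The median without mouse 118 was -0.07 over the 3 resident genes and -0.04 over the 7 genes of monocytes and recruited cells. No test of that difference was made. By role, the inflammatory genes had a median exchange slope of -0.17 with mouse 118 and -0.14 without, and 3 of the 4 had an unadjusted p under 0.05 both ways. The pan-macrophage genes had -0.15 and -0.08, the C1q genes -0.15 and -0.08, and the granulocyte pair -0.13 and -0.04.

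For Clec4f the lowest, median and highest values were 6.55, 8.02 and 8.93 in the 11 mice with more fat than carbohydrate, without mouse 118, and 6.77, 7.41 and 8.41 in the 14 with more carbohydrate. For Timd4 they were 4.35, 5.18 and 6.98 against 2.04, 5.35 and 6.76. Ly6c2 had 1.16, 2.32 and 3.19 against 0.96, 1.73 and 2.13, with the highest value of the second group below the median of the first. Ccr2 had medians of 1.49 and 1.34. The groups overlapped for each of these genes.

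Comparisons at the same protein share and energy level give the pattern by diet. The mean was lower on the carbohydrate-rich diet for 33 of 39 members at 5% protein and high energy (median difference -0.56), for 35 at 14% and high energy (-0.19) and for 34 at 33% and high energy (-0.62). At 33% and medium energy it was lower for 16 of 39, with a median of 0.17. The pair at 14% and high energy rested on mouse 165 of its fat-rich diet, without which 18 of 39 members were lower, with a median of 0.03. Without mouse 438 of its carbohydrate-rich diet it was 25, with a median of -0.08. Leaving out 1 mouse gave 29 to 36 members lower in the high energy pair at 5% protein and 30 to 34 in that at 33%. In the medium energy pair at 33% it gave 11 to 24, with medians of -0.10 without mouse 150 and -0.15 without mouse 418. Over all genes tested, between 46.5% and 50.9% were lower in each pair, with medians between -0.01 and 0.04. The pair at 14% and medium energy holds mouse 118 on its fat-rich side, and there 38 of 39 members were lower with a median of -4.55. Averaged over all 5 pairs, 34 members were called lower by limma, against 6.32% of all genes, and without the pair of mouse 118 it was 0 members.

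Mouse 165, on High energy 14/29/57, was the highest of the 47 mice for 22 of 39 members, and for 2.16% of all genes. It led Clec4f (8.93), Vsig4 (8.84), Timd4 (6.98), Marco (8.23) and Cd5l (8.96), as well as Adgre1, Cd68, Csf1r and the 3 C1q genes. The other mice on its diet had 6.55, 7.38 and 7.84 for Clec4f. Without mouse 165 the exchange slope was -0.21 for Ccl2 and -0.12 for Vsig4.

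Energy density gave no calls either. For high minus medium energy, 0 of 39 members and 0% of all genes were called by limma. Of the members, 38 had negative differences with a median of -0.48 (0.01 for all genes), and 11 had a negative difference at unadjusted p under 0.05, against 3.63% of all genes. Without mouse 118 the median was -0.16, 32 were negative, and 1 member, Cd14, had an unadjusted p under 0.05, against 2.15% of all genes.

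Cd14 had a lowest, median and highest value of 1.99, 2.89 and 4.47 in 29 high energy mice and of 2.55, 3.42 and 3.99 in the 13 medium energy mice without mouse 118. The difference was -0.81 ± 0.29 (SE; limma adjusted p = 0.497) with that mouse and -0.39 ± 0.18 (adjusted p = 0.922) without. Lgals3 (-0.59), Tlr2 (-0.41), Cd68 (-0.74) and Cd5l (-0.48) had the next smallest p, with limma adjusted p between 0.523 and 0.565, and -0.28, -0.18, -0.35 and -0.32 without mouse 118. Timd4 was at -0.21 with mouse 118 and 0.14 without, Ly6c2 at -0.28 and 0.05, Ccr2 at -0.18 and -0.00, Clec4f at -0.29 and -0.15, and Vsig4 at -0.60 and -0.27. By role, the lipid-associated genes had a median difference of -0.56 with mouse 118 and -0.30 without, the pan-macrophage genes -0.49 and -0.21, and the monocyte and recruited genes -0.28 and -0.00. Averaged over matched compositions, 27 members were called lower in high energy, against 6.97% of all genes, and 0 without the pair of mouse 118.

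**Figure D4:**
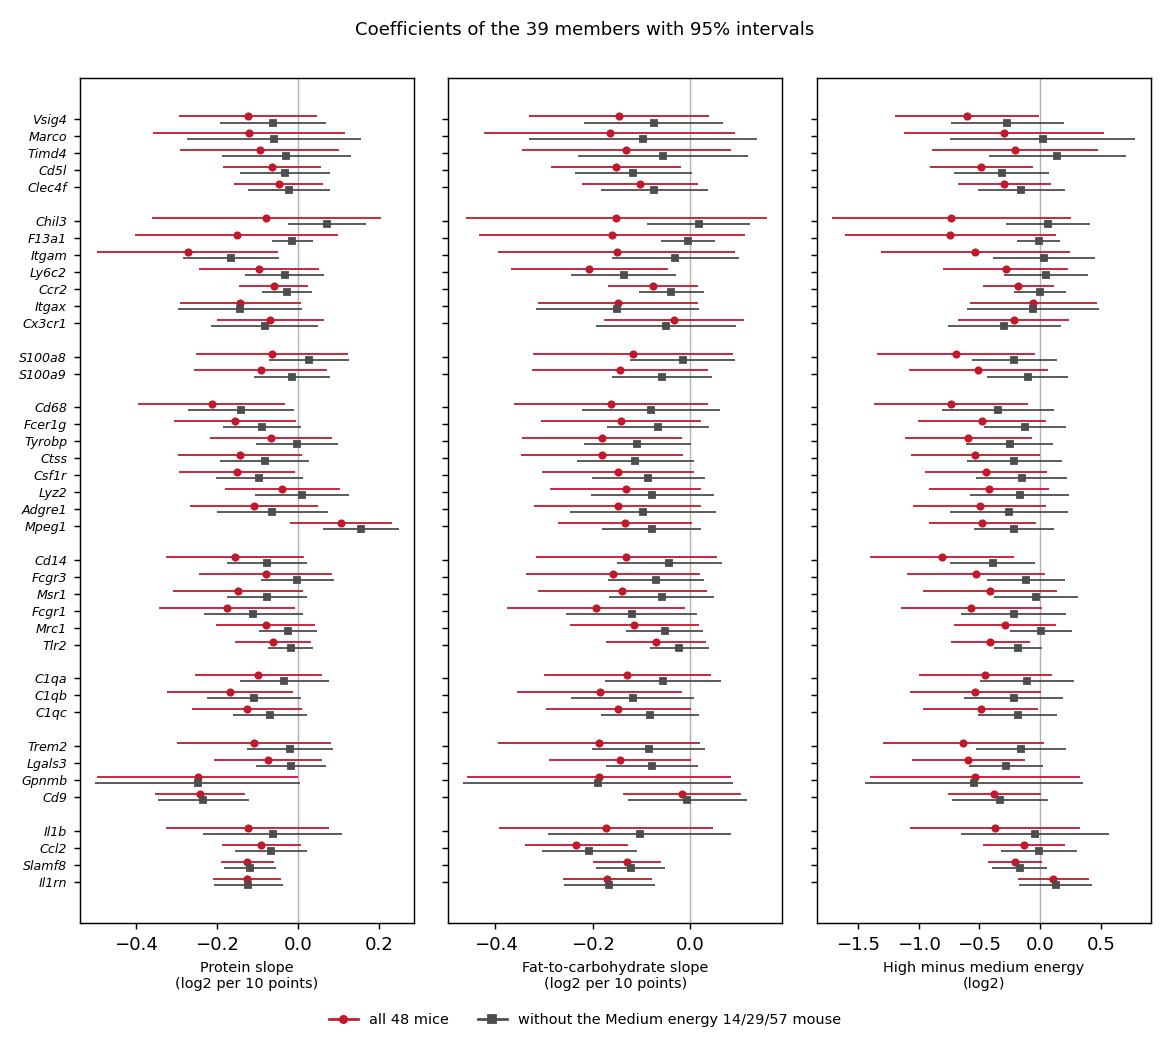
Limma coefficients of the 39 members with 95% intervals for the protein slope, the exchange slope and high minus medium energy, from all 48 mice (red) and without the Medium energy 14/29/57 mouse (grey). Without that mouse the medians move from -0.11 to -0.06, from -0.15 to -0.08 and from -0.48 to -0.16.

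Low and high energy could be compared at 60/20/20, with 3 mice each. By limma 0 of 39 members and 0% of all genes were called. At unadjusted p under 0.05 there were 2 members with positive differences, against 4.04% of all genes, and 0 with negative ones, against 6.07%. F13a1 was at 1.48, 1.94 and 2.09 in low energy mice and at 1.20, 1.25 and 1.28 in high energy mice. Its difference was 0.59 ± 0.20 (SE, limma adjusted p = 0.397). Ly6c2 was at 1.92, 2.52 and 2.99 against 1.38, 1.45 and 2.22, with a difference of 0.80 ± 0.38 (limma adjusted p = 0.476).

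Chil3 and S100a9 were high in 1 low energy mouse, mouse 104, at 3.44 and 3.30. The other low energy mice had 1.06 and 1.83 for Chil3 and 0.81 and 1.34 for S100a9. Of the 7 genes of monocytes and recruited cells, 6 had positive differences, with a median of 0.59. In the 47 mice F13a1, Chil3 and Ccr2 had medians of 1.56, 1.14 and 1.41, below the lowest array median of 1.57. Array interquartile ranges were 2.88, 3.03 and 3.19 in the low energy mice and 3.12, 3.29 and 3.43 in the high energy mice. The part of the low levels and of the array spread in these differences was not tested. The 3 resident genes had a median of -0.27, with Clec4f at -0.04, Vsig4 at -0.27 and Timd4 at -0.27, but Clec4f turned positive with quantile normalization and all 3 did so with the interquartile range as a term. All genes had a median of -0.03.

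Whether slopes differed between high and medium energy was tested with products of energy and each slope in the 29 high and 14 medium energy mice. For protein, 0 members and 0% of all genes were called. The largest differences in slope, high minus medium, were 1.29 for Chil3 and 1.15 for F13a1 (limma adjusted p = 0.248 for each), and they were -0.01 and -0.05 without mouse 118. Without that mouse the difference was negative for all 39 members, with a median of -0.36 against -0.02 for all genes. At unadjusted p under 0.05 it was negative for 19 members, against 4.84% of all genes, with Cd14 (-0.54 ± 0.16), Ly6c2 (-0.52 ± 0.16), Trem2 (-0.54 ± 0.18) and Gpnmb (-1.28 ± 0.42) first. Their limma adjusted p lay between 0.398 and 0.531. No medium energy mouse ate 5% or 60% protein. At 42%, the highest share at medium energy, mouse 154 had a pan-macrophage mean of 1.24 and a lipid-associated mean of 2.09. These are log2 means centred on the 47 mice. The other medium energy mice on that diet had 0.19 and 0.29 for the former and -0.40 each for the latter. Gpnmb was highest of the 47 in medium energy mice 381 and 154, at 6.89 and 6.54. The part of these mice in the differences was not tested.

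For exchange, 0 members were called, against 0.0354% of all genes in either direction. S100a9 (0.77), F13a1 (1.14), Timd4 (0.92) and Chil3 (1.20) had the largest positive differences by p, with limma adjusted p between 0.097 and 0.154. At unadjusted p under 0.05, 19 members had positive differences, against 6.13% of all genes. Without mouse 118 the 4 values were 0.17, 0.06, 0.47 and 0.03, and 0 members had positive and 4 had negative differences at that threshold, the latter against 4.53% of all genes. Cx3cr1 had -0.59 with that mouse and -0.62 without (limma adjusted p = 0.155 and 0.443).

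Across the 47 other mice the 3 resident genes correlated with each other, with r from 0.693 to 0.875. They had r from -0.00 to 0.11 to Ccr2. Ccr2 was low in these mice, with a median of 1.41 and an SD of 0.31, below the lowest array median of 1.57. The part of that low level in its correlations was not tested. The 12 correlations computed share the arrays, and p-values come from 100000 permutations with Benjamini-Hochberg adjustment. Clec4f and Vsig4 correlated with Pearson r = 0.875 and Spearman rho = 0.852 (permutation p = 1e-05, the smallest possible, adjusted p = 2.4e-05), and r was 0.844 without the 2 mice farthest from the median of Clec4f. Within high energy it was 0.895 and within medium energy 0.821. Clec4f and Timd4 had r = 0.701 and Vsig4 and Timd4 r = 0.693, both with the same permutation p.

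Clec4f and Ccr2 had r = 0.07 and rho = 0.15 (permutation p = 0.64 and 0.302), and Vsig4 and Ccr2 r = 0.11 and rho = 0.11 (permutation p = 0.444 for each). Timd4 and Ccr2 had r = -0.00 and rho = 0.10 (permutation p = 0.992 and 0.508). Ly6c2 stood between, with r = 0.397 and rho = 0.40 to Clec4f (permutation adjusted p = 0.0113 and 0.0109; r = 0.323 without the 2 farthest mice) and r = 0.175 and rho = 0.131 to Timd4 (adjusted p = 0.32 and 0.452). The probe sets of Ly6c2, Lyz2 and Chil3 may also read close paralogs, so their values are less certain to be those genes alone.

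A balance of recruited over resident genes was taken as the mean of the 7 monocyte and recruited genes minus that of Clec4f, Vsig4 and Timd4, each gene centred on its mean over the 47 mice. It was 1.02 in mouse 118. Its lowest, median and highest values were -0.48, -0.19 and 1.82 at 5% protein and -0.32, 0.15 and 0.74 at 60%. By energy they were -0.91, -0.18 and 1.82 for high, -0.94, -0.12 and 1.81 for medium and -0.06, 0.12 and 0.74 for low. The groups overlapped throughout. The 2 highest values, 1.82 and 1.81, were those of High energy 5/48/48 mouse 199 and Medium energy 33/47/20 mouse 381. The recruited and resident means behind them were 1.02 and -0.80 in mouse 199, and 0.33 and -1.48 in mouse 381. High energy 5/75/20 mouse 160 came next at 1.15, with means of -0.10 and -1.25. A high balance thus also arose from low resident genes. The balance compares levels of genes and does not give the origin of the cells.

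The spread over the 47 mice was smallest for F13a1 (SD 0.25) and largest for Gpnmb (SD 1.41). Gpnmb, a glycoprotein of lysosomes in lipid-laden macrophages, had a median of 1.87, and 3 mice on different diets lay above 6. They were Medium energy 33/47/20 mouse 381 at 6.89, Medium energy 42/29/29 mouse 154 at 6.54 and High energy 5/48/48 mouse 199 at 6.29. The next value was 4.58. The same 3 mice had the 3 highest values of Trem2, at 4.49, 5.21 and 4.31, against a median of 3.07.

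Itgax was highest in mice 199 and 154, at 4.88 and 4.21, and at 3.10 in mouse 381, against a median of 1.89. Cx3cr1 was highest in mice 199 and 381, at 5.20 and 4.56, and Ccr2 in mice 154 and 199, at 2.77 and 2.60. Timd4 was the lowest of the 47 in mouse 381, at 2.04, and the second lowest in mouse 199, at 3.64, whereas mouse 154 had 5.63 and the median was 5.18. Clec4f in those mice was at 6.89, 7.04 and 8.05. These 3 mice ate diets of different composition, at high and at medium energy.

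Gpnmb correlated with Itgax (r = 0.716, rho = 0.459; permutation adjusted p = 2.4e-05 and 0.00377) and with Trem2 (r = 0.752, rho = 0.456; permutation adjusted p = 2.4e-05 and 0.00377). Without the 2 mice farthest from the median of Gpnmb, mice 381 and 154, r was 0.668 and 0.585. Mouse 199 stayed in, and no r was computed without it as well. Within high and medium energy r was 0.826 and 0.612 for Itgax, and 0.622 and 0.871 for Trem2. The high energy values include mouse 199, and the medium energy values include mice 381 and 154. With Cd9 the correlation was weaker, at r = 0.374 and rho = 0.390 (permutation adjusted p = 0.0145 and 0.0109). Its r was 0.289 without mice 381 and 154. The protein slope of Gpnmb was -0.25 ± 0.12 (SE; limma adjusted p = 0.19), and -0.39 (adjusted p = 0.0183) in high energy mice alone. The high energy fit holds mouse 199, at 6.29 on 5% protein, and leaves out mice 381 and 154, at 6.89 and 6.54 on 33% and 42%. The part of mouse 199 in that slope was not tested.

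**Figure D5:**
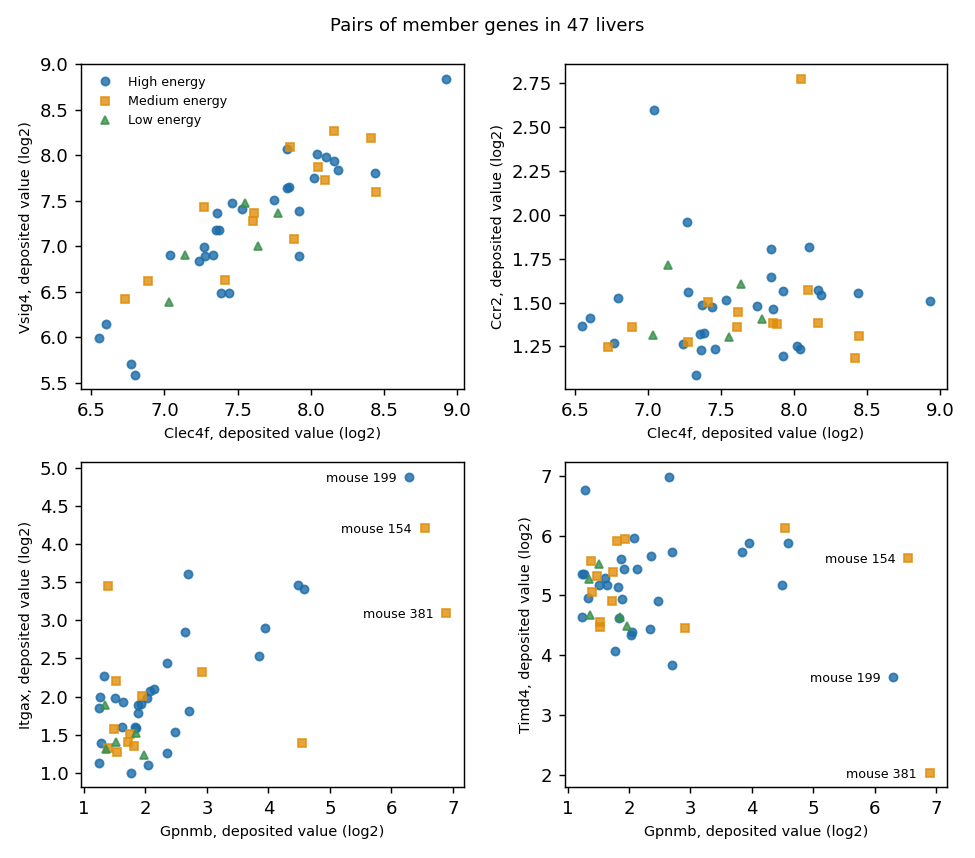
Deposited log2 values of pairs of members in 47 mice, without the Medium energy 14/29/57 mouse, coloured by energy level. Clec4f and Vsig4 have r = 0.875 and Clec4f and Ccr2 r = 0.07, and mice 199, 154 and 381 lie at 6.29, 6.54 and 6.89 for Gpnmb.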

How the data were processed

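Liver RNA from 48 mice was labelled with biotin and hybridized to Affymetrix arrays, per the labels' protocols. The authors deposited 1 value for each of 41345 probe sets and 48 arrays, from -0.51 to 13.42. These values were deposited by the authors on a scale read from that range as log2, and their background correction and normalization are not given in the sources used here. Names came from the platform annotation. Of the probe sets 23521 had 1 gene symbol, 1814 several and 16010 were not listed, and only the first were used. Genes whose mean passed the 30th percentile of probe set means (1.17) were tested.

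Genes were fitted with limma 3.58.1 (lmFit, eBayes with trend) in R 4.3.3 with protein share, carbohydrate-for-fat exchange and energy level. Low against high energy at 60/20/20 used 1 mean for each combination, and interactions used the high and medium energy mice. Tests were two-sided and adjusted over all genes tested. P-values are over separate animals, and the number of arrays limits the precision. The fits were tested on simulated data.

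Named members were those past the threshold or the 5 of smallest p in each comparison, with Clec4f, Vsig4, Timd4, Ccr2 and Ly6c2 always, and up to 4 genes of the wider lists. Mpeg1, Gpnmb, the single mice described and the markers of other cells were named after their values were seen. Members and lists were chosen with earlier results of these data known. Correlations used numpy 2.4.6 and scipy 1.17.1 in Python 3.11.15. The alternatives changed the filter, probe set rule, normalization, array weights, covariates or mice used, and those that combine a term with leaving out mouse 118, or leave 1 mouse out of a matched pair of diets, were added after seeing the data.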

Additional observations from a re-analysis of the deposited data

Results flagged for a closer look

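In groups of 4 mice on 1 diet, 3 values stood apart from the other mice of their group by a gap large against its whole range. They came from 63 groups of 21 genes, and about 1 in 20 groups is marked by chance. Timd4 was at 3.64 in High energy 5/48/48 mouse 199, where the other mice had 5.66 to 5.96. Timd4 was also low, at 3.83, in High energy 5/75/20 mouse 160, with 5.43 to 5.73 in the others. Il1rn was at 4.31 in High energy 14/29/57 mouse 402, with 4.84 to 4.94 in the others.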

How the results depend on the processing

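Cd9 kept its protein call in each alternative tried and in each fit without 1 mouse, and Slamf8 did so except with the interquartile range as a term. For protein, 2 members were called as reported. There were 6 with array weights, with or without mouse 118, 5 with the log2 of the protein share, and 1 with the interquartile range as a term, with or without mouse 118. The genes called for protein were 4301 with array weights (4304 without mouse 118), 3652 with the log2 of protein, 630 with diet combination as a random block, and 113 with the interquartile range as a term (195 without mouse 118), against 1187 as reported. Without mouse 118, the slope turned to 0.0012 for Clec4f with Y-linked minus Xist as a term, and to 0.014 for Timd4 and 0.018 for Vsig4 with the interquartile range.

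For exchange, 0 members and genes were called as reported. There were 1 member and 2 genes with array weights, with or without mouse 118, and 1 member and 1 gene in high energy mice alone. Matched contrasts gave 34 members and 1736 genes. Timd4 turned to 0.011 in high energy mice alone. For high minus medium energy, matched contrasts gave 27 members and 1899 genes, and 2 genes without mouse 118, and Y-linked minus Xist as a term gave 2 genes. Ly6c2 and Timd4 turned to 0.046 and 0.053 with array weights and to 0.051 and 0.14 without mouse 118, and Ccr2 to 0.063 with matched contrasts without it. For low minus high energy, array weights gave 12 genes, Clec4f turned to 0.032 with quantile normalization and 0.023 with Y-linked minus Xist, and the interquartile range turned Clec4f, Timd4 and Vsig4 to 0.077, 0.078 and 0.18.

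For the protein by energy interaction, the interquartile range gave 6 genes. Without mouse 118 the difference in slope turned to -0.26 for Ccr2, -0.015 for Chil3, -0.24 for Clec4f, -0.055 for F13a1, -0.15 for Fcgr3, -0.52 for Ly6c2, -0.036 for Timd4, -0.039 for Tlr2 and -0.37 for Vsig4. Array weights turned Ccr2 to -0.20, Clec4f to -0.28, Fcgr3 to -0.078, Ly6c2 to -0.38, Timd4 to -0.036 and Vsig4 to -0.28. For the exchange by energy interaction, 6 genes were called as reported, 1 with array weights, 70 with the interquartile range, 27 with mouse number over 300, 3 with diet combination as a random block and 0 without mouse 118. Ccr2 and Vsig4 turned to -0.013 and -0.063 with array weights, and Ccr2, Ly6c2 and Vsig4 to -0.059, -0.052 and -0.14 without mouse 118. The cause of these changes was not tested, beyond the term or mouse that each setting names.

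Leaving out 1 mouse at a time gave between 2 and 3 members and 588 and 3004 genes called for protein. The gene count moved by over 1.5 times without High energy mice 126 (3004), 125 (2147) and 194 (620) on 60/20/20, 129 (726) and 130 (743) on 5/20/75, 199 (784), 135 (778) and 435 (758) on 5/48/48, and 440 (588) on 42/29/29. It gave 0 to 3 genes for high minus medium energy, 0 to 5 for low minus high, 0 to 3 for the protein by energy interaction, and 0 to 182 genes with 0 to 4 members for the exchange by energy interaction, the 4 members without Medium energy 33/47/20 mouse 418 and the 182 genes without mouse 381 on the same diet. In these fits Ly6c2 ranged from -0.39 to 0.051 and Timd4 from -0.45 to 0.14 for high minus medium energy, and Clec4f from -0.22 to 0.079 for low minus high. For the protein by energy interaction the ranges were -0.26 to 0.26 for Ccr2, -0.015 to 1.495 for Chil3, -0.24 to 0.10 for Clec4f, -0.055 to 1.298 for F13a1, -0.15 to 0.75 for Fcgr3, -0.52 to 0.24 for Ly6c2, -0.036 to 0.60 for Timd4, -0.039 to 0.47 for Tlr2 and -0.37 to 0.38 for Vsig4. For the exchange by energy interaction they were -0.059 to 0.33 for Ccr2, -0.052 to 0.74 for Ly6c2 and -0.14 to 0.62 for Vsig4. No paired analysis was possible because the mouse numbers are not shared between groups.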
